A study of Mus musculus with 12 samples.

Results

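The fibrillar collagens were examined in sorted metaphyseal osteoblasts of the mouse: *Col1a1*, *Col1a2*, *Col3a1*, *Col5a1*, *Col5a2*, *Col5a3*, *Col11a1*, *Col11a2*, *Col24a1* and *Col27a1*. They are the genes of types I, III, V, XI, XXIV and XXVII, were found by gene name, and make up 10 of the 32288 features in the deposited counts. All 10 had enough reads to be tested in every comparison. Bulk RNA-seq was done on 12 libraries of mGFP+ cells. Juvenile (3 weeks, 4 libraries) and adult (8 weeks, 4 libraries) mice carried *Osx-CreERT2* and the *mTmG* reporter, in which Cre turns on membrane GFP. They received tamoxifen on 3 consecutive days and were collected 2 days later, and each library pooled bones of 2 male mice. The *c-Myc* group (2 libraries) carried the same alleles plus *LSL-tTA* and *Col1a1::TetO–c-Myc*, so that Cre in *Osx*+ cells switched on a *c-Myc* transgene. The *c-Myc* + *R172H* group (2 libraries) also carried *Trp53-LSL-R172H*, a mutant p53. Mice of the *c-Myc* groups received tamoxifen on 2 consecutive days at 3 weeks and were collected after 7 days. The dissection protocol calls them 5-week-old, trimmed about 5 mm of bone in place of 2 mm. It names male and female mice for these groups, while the study elsewhere states that RNA-seq used males only. The study gave mice with the inducible transgene, or pregnant females, doxycycline or tetracycline in sucrose water that ended before analysis. Tamoxifen was dosed per mouse in these mice and by body weight in reporter mice. Age at dissection, trimming, number of tamoxifen days and days after tamoxifen therefore cannot be told apart from the *c-Myc* transgene against juvenile libraries. Nor can the drug in the drinking water or the way tamoxifen was dosed. The same holds for sex where both were used. The transgene, which the study calls a knock-in, is named for the *Col1a1* locus, which is that of a gene examined here.

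Fibrillar collagens are made of α chains wound into a long triple helix, and the trimers assemble into the banded fibrils that give bone, skin, tendon and cartilage their strength. Type I, a trimer in which α1(I) chains outnumber the α2(I) chain, is the main protein of bone and is laid down by osteoblasts as osteoid. Type V and type XI chains join the fibril as minor components that start it and limit its width, type III is abundant in skin and vessels, and types II and XI are the fibrillar collagens of cartilage. Types XXIV and XXVII are later-described fibrillar types. *Col24a1* is known from forming bone and *Col27a1* from growth plate cartilage.

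Library totals lay between 9066154 and 15684412 counts. The 10 genes took 50.6% to 59.6% of all counts in juvenile libraries, 34.8% to 53.6% in adult, 14.3% to 17.4% in *c-Myc* and 9.17% to 9.38% in *c-Myc* + *R172H* libraries. Another transcript, *Gm26917*, took 7.19% to 8.46% of counts in juvenile, 4.70% to 10.5% in adult, 28.2% to 29.4% in *c-Myc* and 26.5% to 28.7% in *c-Myc* + *R172H* libraries. With *Col1a1*, *Col1a2* and *Gm26917* left out of the library sizes, the number of collagens called stayed the same in each of 5 comparisons. Levels are given as counts per unit of TMM-scaled library size (CPM) on 1 scale over the 12 libraries, so that a library's values need not reach the usual total. *Myc*, the induced gene, had 45.9 ± 5.22 CPM in juvenile (SD, n = 4), 641 ± 23.8 in *c-Myc* (n = 2) and 693 ± 76.7 CPM in *c-Myc* + *R172H* libraries (n = 2). *Sp7*, which encodes OSX, was present in every library at 119 to 246 CPM but differed between groups. It was at 227 to 246 CPM in juvenile, 141 to 193 in adult, 122 and 152 in *c-Myc* and 119 and 123 CPM in *c-Myc* + *R172H* libraries. The log2 fold change of *Sp7* in edgeR was 0.43 ± 0.12 (SE) for juvenile minus adult and -0.81 ± 0.10 for *c-Myc* minus juvenile. Neither pair of groups overlapped, as for 12.9% of all genes between the ages and 64.5% between *c-Myc* and juvenile libraries. Cartilage transcripts differed between libraries: 17 chondrocyte markers, *Col2a1*, *Acan* and *Sox9* among them, summed to 9116 to 27346 CPM in juvenile, 35742 to 131222 in adult, 363 to 580 in *c-Myc* and 175 to 180 CPM in *c-Myc* + *R172H* libraries. At most 1 of the 17 was at 0 in any library. The 10 osteoblast markers summed to 34491 to 41297 CPM in juvenile, 25644 to 36640 in adult, 6403 to 7460 in *c-Myc* and 4186 to 4222 CPM in *c-Myc* + *R172H* libraries. *Sparc* was the largest part of this sum in every library. The 7 marrow stromal markers summed to 338 to 431 CPM in juvenile and 440 to 673 CPM in adult libraries. In *c-Myc* and *c-Myc* + *R172H* libraries they summed to 157 to 241 and 139 to 159 CPM. For 7 tendon and fibroblast markers the sums were 46.9 to 58.9 CPM in juvenile and 88.0 to 224 CPM in adult libraries. They were 13.6 to 16.0 CPM in *c-Myc* and 12.5 to 13.2 CPM in *c-Myc* + *R172H* libraries. The part of these cells in the collagen values was not tested. Haematopoietic, endothelial and muscle markers each summed to at most 12.9 CPM in any library. In bulk samples, fewer cells of a type and less RNA per cell cannot be told apart.

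Type I transcripts were the most abundant by far on a per-length scale. In CPM per kilobase of the principal transcript, juvenile libraries held 81847 ± 13920 for *Col1a1* and 41855 ± 7552 for *Col1a2* (SD, n = 4). *Col11a2* followed at 1686 ± 353, *Col5a2* at 874 ± 155, *Col11a1* at 772 ± 87.8 and *Col5a1* at 589 ± 39.6. *Col3a1* had 192 ± 56.4, *Col27a1* 32.1 ± 13.9, *Col24a1* 29.9 ± 7.61 and *Col5a3* 9.24 ± 0.81 CPM per kilobase.

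The type I chains had their highest group means in juvenile libraries, with ranges that overlapped those of adult libraries. *Col1a1*, the α1(I) chain on chromosome 11, was at 385910, 450695, 539017 and 565797 CPM in the 4 juvenile libraries and at 234069, 406721, 372933 and 224108 CPM in the 4 adult libraries. It was at 65489 and 87936 CPM in *c-Myc* libraries and at 35289 and 37118 CPM in *c-Myc* + *R172H* libraries. Adult replicates 1 and 4 were low, adult replicate 2 lay within the juvenile range, and the 2 *c-Myc* groups lay below all other libraries and apart from each other. *Col1a2*, the α2(I) chain on chromosome 6, ran with it at 175935 to 266935 CPM in juvenile, 114020 to 205927 in adult, 32272 to 42155 in *c-Myc* and 19508 to 19558 CPM in *c-Myc* + *R172H* libraries. Per kilobase, 1.84 ± 0.108 *Col1a1* were found for each *Col1a2* (SD over 12 libraries, range 1.63 to 1.98). Over all merged exons in place of the principal transcript, the ratio was 3.87, so its absolute size rests on the transcript length taken.

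**Figure D1:**
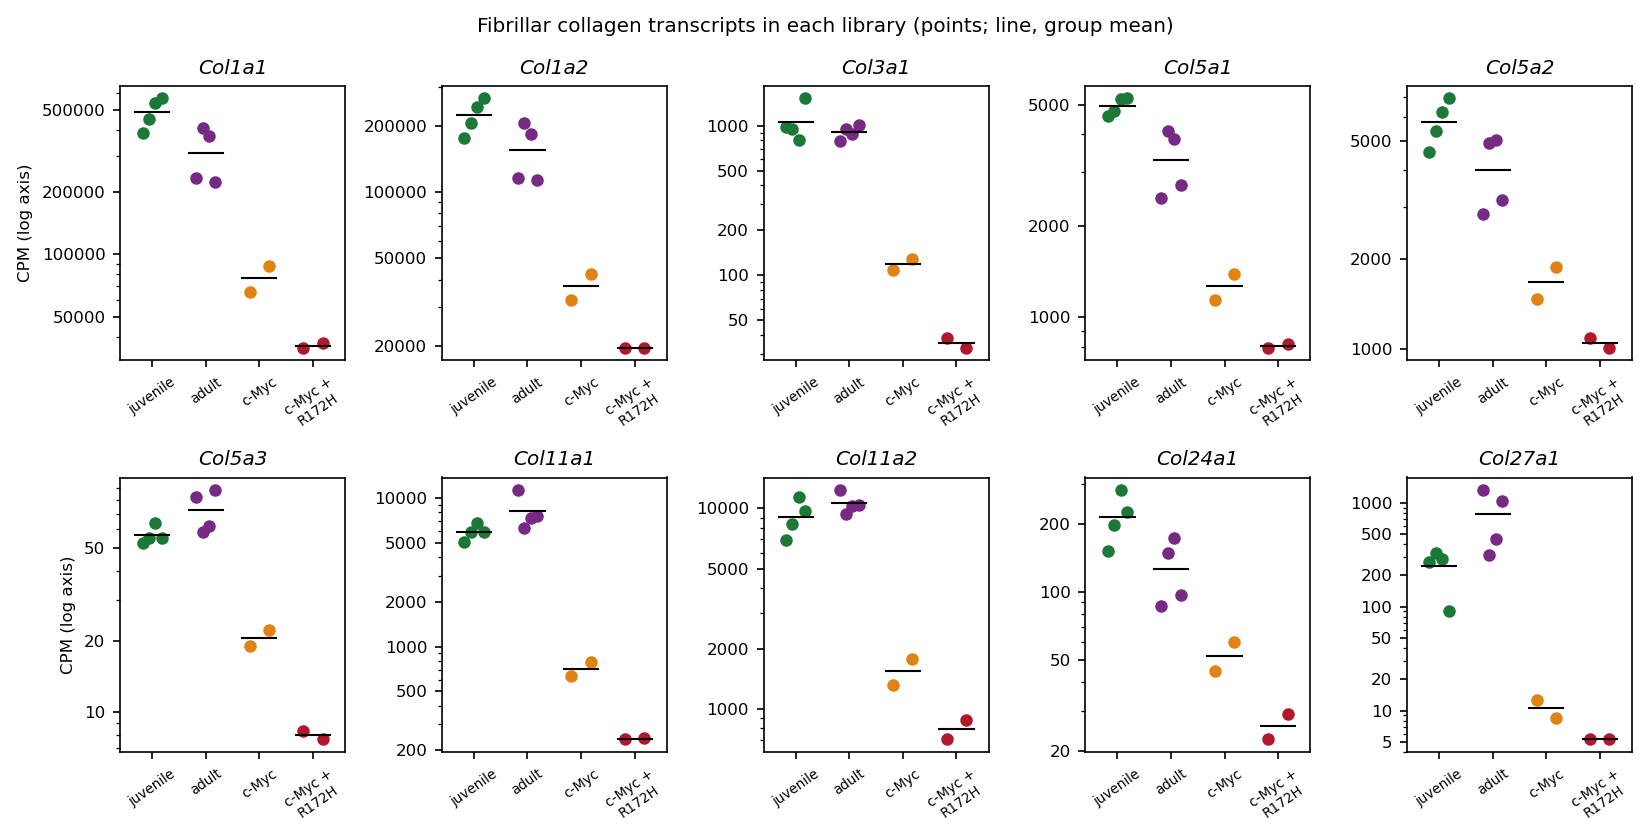
CPM of each fibrillar collagen (log axis, own scale in each panel) in 4 juvenile, 4 adult, 2 *c-Myc* and 2 *c-Myc* + *R172H* libraries. Points are libraries and lines are group means; for each gene the *c-Myc* + *R172H* points lie lowest and the *c-Myc* points next, while juvenile and adult points overlap except for *Col5a1*.

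*Col3a1*, the only chain of type III, was at 989, 960, 804 and 1524 CPM in juvenile and at 788, 948, 878 and 1018 CPM in adult libraries. It was at 109 and 128 CPM in *c-Myc* and at 38.2 and 32.7 CPM in *c-Myc* + *R172H* libraries. The 2 ages overlapped, and the fall from juvenile to *c-Myc* + *R172H* was 30.0-fold in the fit. *Col3a1* and *Col5a2*, the α2(V) chain, lie tail to tail on chromosome 1 (GRCm38), with 24614 bases and no annotated gene between them. *Col5a2* fell less, from 4579 to 6941 CPM in juvenile and 2842 to 5032 in adult libraries to 1475 and 1881 in *c-Myc* and 1090 and 1009 CPM in *c-Myc* + *R172H* libraries. Per kilobase, *Col5a2* exceeded *Col3a1* 4.74 ± 1.26 times in juvenile (SD, n = 4), 3.71 ± 1.05 times in adult (n = 4), 11.8 ± 0.711 times in *c-Myc* (n = 2) and 24.9 ± 1.37 times in *c-Myc* + *R172H* libraries (n = 2).

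*Col5a1*, the α1(V) chain present in every form of type V, was at 4575, 4764, 5222 and 5239 CPM in juvenile and 2460, 4080, 3862 and 2728 CPM in adult libraries. It was at 1138 and 1389 CPM in *c-Myc* and 791 and 815 CPM in *c-Myc* + *R172H* libraries. *Col5a1* was the only one of the 10 whose juvenile and adult libraries did not overlap, where 12.9% of all genes tested did not overlap. It shares 99 exon bases with the antisense transcript 2810430I11Rik and 113 with *Gm13372*; the highest counts of these were 24 and 5, and without the strand setting of the counting the reads cannot be told apart. *Col5a3*, the α3(V) chain of a rarer form, was the least abundant in juvenile libraries, at 52.2, 55.0, 63.7 and 55.3 CPM, and was at 82.0, 58.5, 61.8 and 88.3 CPM in adult, 19.1 and 22.3 CPM in *c-Myc* and 8.28 and 7.64 CPM in *c-Myc* + *R172H* libraries. Here adult replicates 1 and 4 were the high ones. Its count was 154 or more in every library.

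The type XI chains had higher means in adult than in juvenile libraries, with overlapping ranges. *Col11a1*, the α1(XI) chain, was at 5087, 5918, 6737 and 5931 CPM in juvenile and 11307, 6287, 7327 and 7580 CPM in adult libraries. It was at 631 and 791 CPM in *c-Myc* and 237 and 243 CPM in *c-Myc* + *R172H* libraries. *Col11a2*, the α2(XI) chain, was at 6926 to 11356 CPM in juvenile, 9382 to 12356 in adult, 1314 and 1769 in *c-Myc* and 705 and 878 CPM in *c-Myc* + *R172H* libraries. The *Col11a1*-to-*Col11a2* ratio per kilobase was 0.465 ± 0.0502 in juvenile (SD, n = 4), 0.532 ± 0.0763 in adult (n = 4), 0.326 ± 0.0166 in *c-Myc* (n = 2) and 0.216 ± 0.0296 in *c-Myc* + *R172H* libraries (n = 2). The ratios of the *c-Myc* groups lay below those of every juvenile and adult library. The ratio of *Col5a1* to *Col5a2* lay between 0.572 and 0.788 in all 12 libraries.

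*Col24a1*, present at a low level, had 151 to 282 CPM in juvenile, 86.5 to 173 in adult, 44.9 and 59.9 in *c-Myc* and 22.4 and 29.0 CPM in *c-Myc* + *R172H* libraries. Among the 10 genes its centred log2 CPM lay closest to *Col5a1* (root mean square difference 0.23 over 12 libraries) and *Col5a2* (0.25). *Col27a1* had the widest spread. It was at 267, 330, 289 and 90.6 CPM in juvenile, 1330, 314, 447 and 1032 CPM in adult, 12.5 and 8.45 CPM in *c-Myc* and 5.26 and 5.36 CPM in *c-Myc* + *R172H* libraries. Adult replicates 1 and 4 were high and juvenile replicate 4 was low. These are also the libraries in which the 17 chondrocyte markers summed highest (131222 and 78173 CPM) and, among juvenile and adult libraries, lowest (9116 CPM). *Col2a1*, the cartilage collagen and the largest part of these sums, was at 101300 and 60556 CPM in the former and 7040 CPM in the latter. The part of cartilage RNA in *Col27a1*, *Col11a1* and *Col11a2* was not tested.

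**Figure D2:**
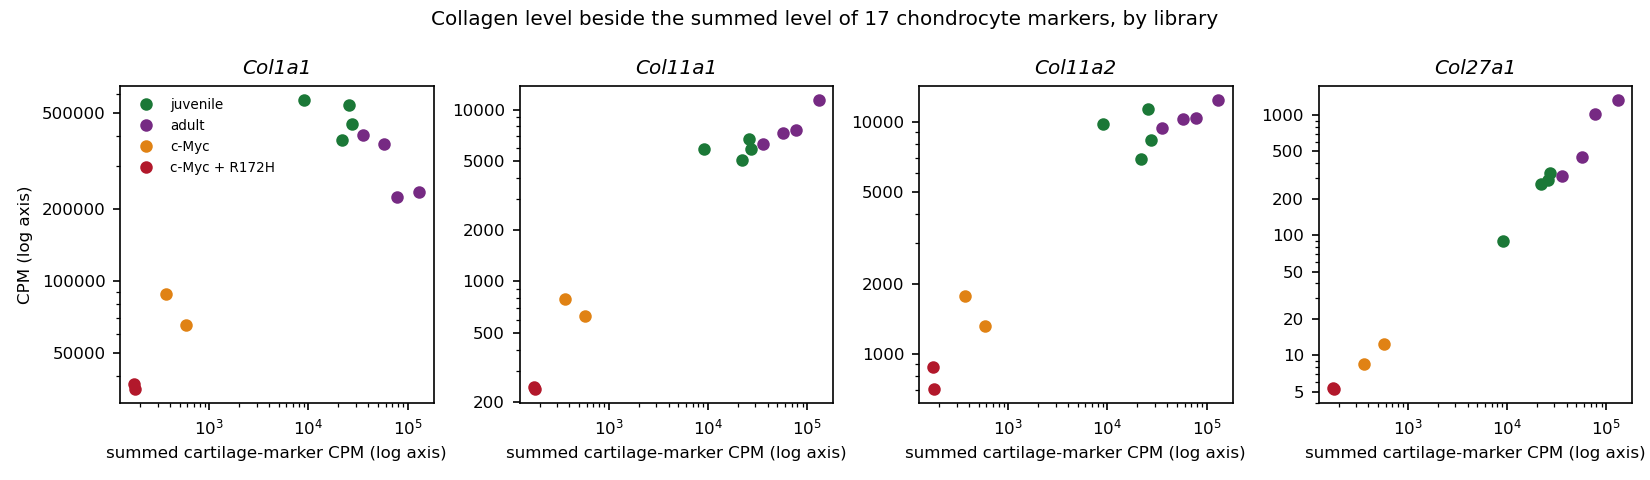
CPM of *Col1a1*, *Col11a1*, *Col11a2* and *Col27a1* (y, log axis) against the summed CPM of 17 chondrocyte markers (x, log axis); each point is 1 of 12 libraries. Among juvenile and adult libraries *Col27a1* runs from 90.6 to 1330 CPM along the marker sum, whereas *Col1a1* among these 8 is lowest in the 2 adult libraries with the highest sum.

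Whether the collagens differed with age was asked by setting juvenile against adult libraries. None of the 10 passed an adjusted p of 0.05 in edgeR's quasi-likelihood test, against 5.12% of 11345 genes tested. At an unadjusted p below 0.05 there were 8, all but *Col3a1* and *Col11a2*, against 19.7% of all genes. DESeq2 called 3, against 7.05% of the 13260 genes it gave an adjusted p: *Col1a1*, *Col5a1* and *Col24a1*, all higher in juvenile libraries. In the edgeR fit, log2 fold changes (juvenile minus adult, ± SE) were positive for 6 genes and negative for 4. They were 0.64 ± 0.25 for *Col1a1*, 0.53 ± 0.24 for *Col1a2*, 0.59 ± 0.17 for *Col5a1* (adjusted p = 0.0548, edgeR), 0.53 ± 0.20 for *Col5a2*, 0.76 ± 0.24 for *Col24a1* and 0.23 ± 0.17 for *Col3a1*. They were -0.37 ± 0.14 for *Col5a3*, -0.47 ± 0.18 for *Col11a1*, -0.23 ± 0.18 for *Col11a2* and -1.69 ± 0.60 for *Col27a1*. Without adult replicate 2, *Col5a1* passed (log2 fold change 0.71, adjusted p = 0.0169 in edgeR; 0.00133 to 0.164 over all alternatives), and without adult replicate 3, *Col24a1* did (0.94, adjusted p = 0.0341 in edgeR; 0.0113 to 0.215 over all alternatives). With library totals as the only scaling, *Col5a3* and *Col11a1* were called lower in juvenile libraries and *Col3a1* turned to -0.04, as the median of all genes shifted to -0.24.

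A ratio within a library does not depend on the scaling. The 9 other genes were therefore set against *Col1a1* by counts. Each ratio also moves with *Col1a1* itself, which had a log2 fold change of 0.64 ± 0.25 (juvenile minus adult, edgeR). On their own, *Col5a3*, *Col11a1*, *Col11a2* and *Col27a1* had -0.37 ± 0.14, -0.47 ± 0.18, -0.23 ± 0.18 and -1.69 ± 0.60, none of them called. *Col1a2* per *Col1a1* was higher in every adult than in every juvenile library, with a log2 difference of -0.12 (juvenile minus adult), which is small but larger than the spread (SD 0.024 in juvenile and 0.023 in adult, n = 4 each). *Col5a3*, *Col11a1*, *Col11a2* and *Col27a1* per *Col1a1* were also higher in every adult library, with juvenile minus adult differences of -1.03, -1.11, -0.92 and -2.28. For these 5 ratios a two-sided exact permutation test gave p = 0.0286, the smallest that 4 against 4 allows, and an adjusted p of 0.0514 over the 9 ratios, which misses 0.05. The differences in *Col5a1* (-0.06, exact p = 0.543), *Col5a2* (-0.12, exact p = 0.0857), *Col3a1* (-0.48, exact p = 0.2) and *Col24a1* (0.10, exact p = 0.429) were within overlapping ranges. *Col2a1* and the chondrocyte markers were also higher in adult libraries: 16 of 17 had a negative log2 fold change in juvenile against adult libraries, all but *Col10a1*, and 2 were called, *Col2a1* and *Ucma*. Their part in the ratios was not tested.

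**Figure D3:**
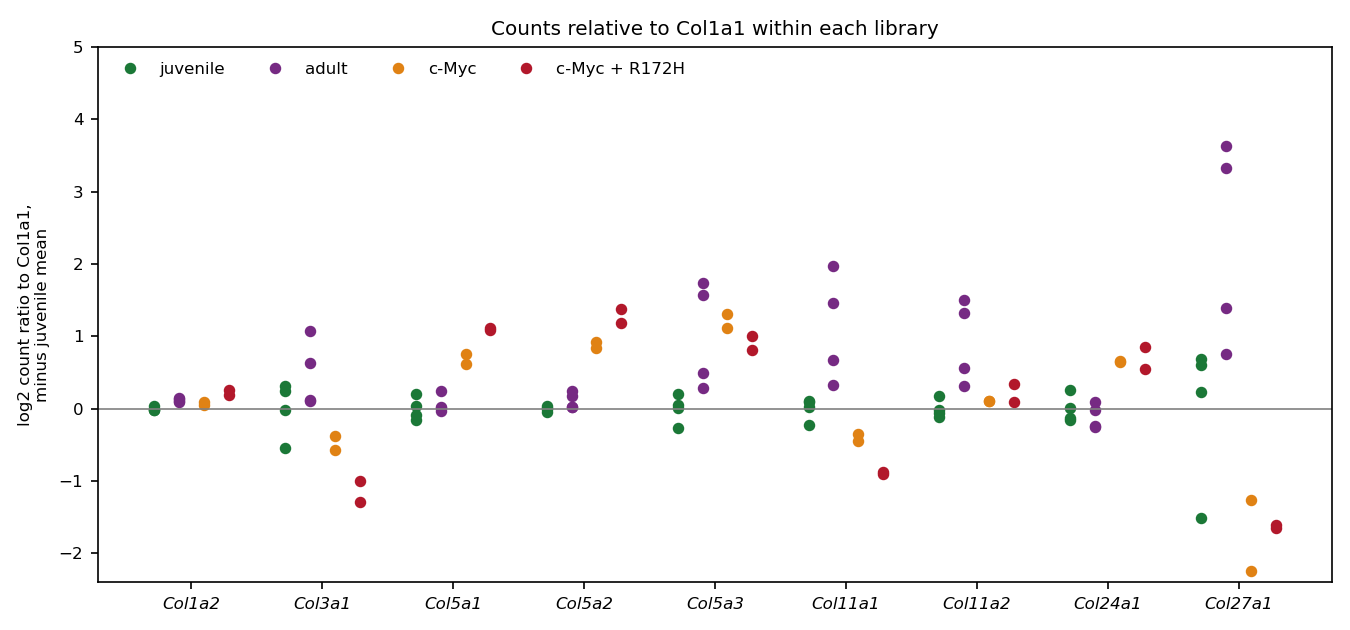
Log2 of the count of each gene over the count of *Col1a1* in the same library, minus the mean of the 4 juvenile libraries (y), for 9 genes (x); points are libraries, coloured by group. Adult points of *Col1a2*, *Col5a3*, *Col11a1*, *Col11a2* and *Col27a1* lie above the juvenile points. Those of *Col1a2*, *Col5a1*, *Col5a2*, *Col5a3* and *Col24a1* lie above the juvenile points in both *c-Myc* groups. The shifts of *Col1a2* are small.

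Cells with the induced *c-Myc* transgene were then compared with juvenile libraries. All 10 collagens were lower in *c-Myc* libraries, and all 10 passed an adjusted p of 0.05 with a log2 fold change of at least 1 in size. This call was made for 34.4% of 12588 genes tested, 16% of them downward, and the median log2 fold change was -2.59 over the 10 genes and 0.04 over all genes. The log2 fold change (± SE) was largest in size for *Col27a1*, at -4.56 ± 0.64 (adjusted p = 0.00115, edgeR), then for *Col3a1* at -3.19 ± 0.24 and *Col11a1* at -3.08 ± 0.13. *Col1a1* had -2.68 ± 0.18, a 6.41-fold fall, and *Col1a2* had -2.61 ± 0.18 (adjusted p = 1.76e-07 and 1.86e-07, edgeR). The part of the transgene at the *Col1a1* locus was not tested. *Col11a2* had -2.58 ± 0.20, *Col24a1* -2.05 ± 0.22, *Col5a1* -1.99 ± 0.11, *Col5a2* -1.81 ± 0.16 and *Col5a3* -1.47 ± 0.14. No library of 1 group overlapped the other for any of the 10, as for 64.5% of all genes (28.7% with *c-Myc* lower). All 17 chondrocyte markers were called lower too, with a median log2 fold change of -5.70, and their part in the lower collagen values was not tested. Scaling by library totals alone left 8 calls, since *Col5a2* (-0.96) and *Col5a3* (-0.64) no longer reached the fold limit while the median of all genes moved to 0.87.

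Against adult libraries, which had the same *c-Myc* libraries on the other side and thus are no independent comparison, all 10 were lower again (50.1% of 13005 genes were called, 23.4% downward). The log2 fold changes ran from -1.25 for *Col5a2* to -6.21 for *Col27a1*. *Col24a1* (-1.26 ± 0.31, adjusted p = 0.00413 in edgeR) lost its call without *c-Myc* replicate 1 (-1.06, adjusted p = 0.0741 in edgeR; 3.42e-12 to 0.0741 over all alternatives).

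Set against the same juvenile libraries, *c-Myc* + *R172H* libraries had all 10 lower as well (37.5% of all genes were called, 17.9% downward). The log2 fold changes ran from -2.46 for *Col5a2* to -5.51 for *Col27a1*, and *Col1a1* had -3.74 ± 0.20.

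**Figure D4:**
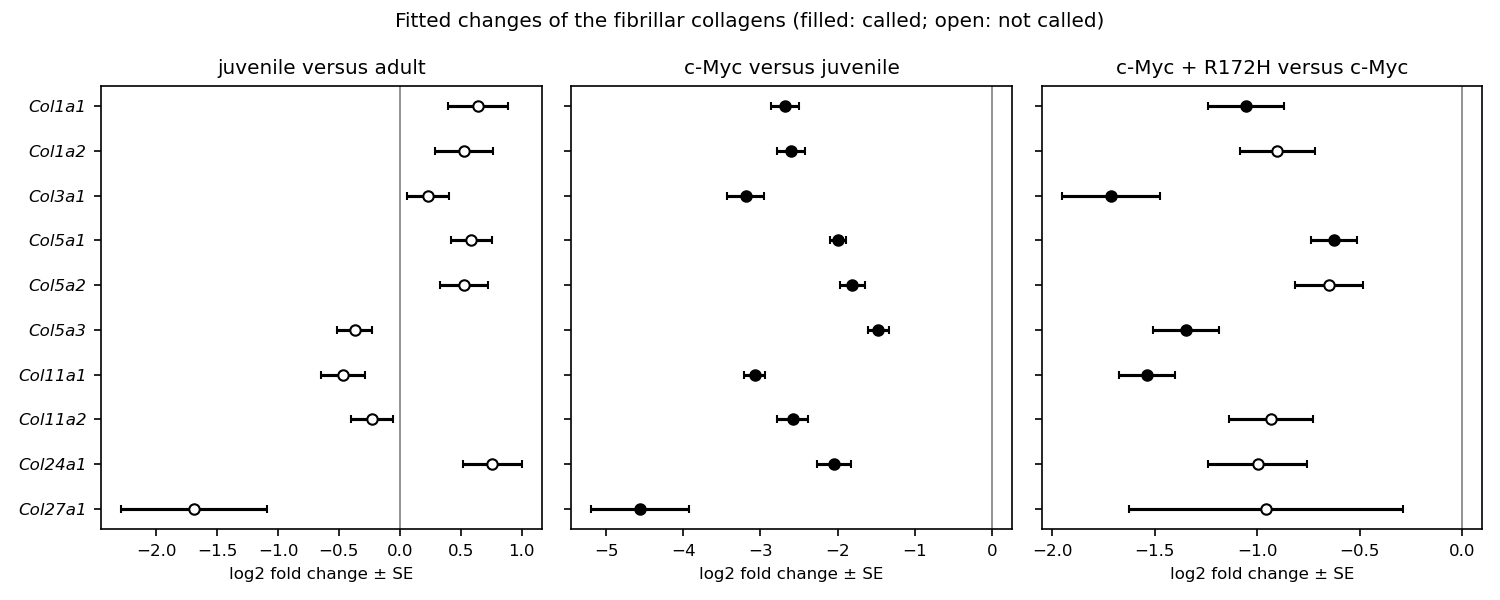
Log2 fold changes with their SE from edgeR for each gene in 3 comparisons (own x scale in each panel). Filled points passed the call and open points did not: 0 of 10 for juvenile against adult, 10 for *c-Myc* against juvenile and 5 for *c-Myc* + *R172H* against *c-Myc*.

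Addition of mutant p53 to *c-Myc* was compared with *c-Myc* alone, with the 2 groups given the same treatment and collection. All 10 collagens were lower in both *c-Myc* + *R172H* libraries than in both *c-Myc* libraries (45% of all genes did not overlap, 27.5% with *c-Myc* + *R172H* lower). Of the 10, 5 passed an adjusted p of 0.05, where 59 of 12588 genes did (0.469%, and 0.461% downward). The log2 fold change was -1.71 ± 0.24 for *Col3a1* (adjusted p = 0.0103), -1.54 ± 0.13 for *Col11a1* (0.000897), -1.35 ± 0.16 for *Col5a3* (0.00321), -1.05 ± 0.19 for *Col1a1* (0.0307) and -0.62 ± 0.11 for *Col5a1* (0.0315; all edgeR). Values for the rest were -0.998 ± 0.24 for *Col24a1*, -0.96 ± 0.67 for *Col27a1*, -0.93 ± 0.20 for *Col11a2*, -0.90 ± 0.18 for *Col1a2* (adjusted p = 0.0594, edgeR) and -0.65 ± 0.17 for *Col5a2*. *Sp7* differed by -0.15 ± 0.11 and *Myc* by 0.14 ± 0.13, neither of them called. With 2 libraries a side, the number of calls depended on single libraries. It was 1 without *c-Myc* replicate 2 or without *c-Myc* + *R172H* replicate 2, 2 without *c-Myc* + *R172H* replicate 1, 3 without juvenile replicate 2, which shares the estimate of spread, and 5 to 7 otherwise, while 0.0608% to 0.693% of all genes were called. *Col11a1* passed in each of these, and DESeq2 called 9, against 2.78% of the 7220 genes it gave an adjusted p. The chondrocyte markers had a median log2 fold change of -1.29 with none of 17 called; the part of cartilage RNA in the lower values was not tested.

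For the collagens called here the upstream sequences were read from RefSeq promoters of GRCm38.p6, which held entries for 8 of the 10 genes and for 4 of these 5. They are shown because these genes fell at both steps, from juvenile to *c-Myc* and from *c-Myc* to *c-Myc* + *R172H*. Each runs 5′ to 3′ over the 250 bases before the RefSeq start. Capitals mark CCAAT, the box bound by NF-Y, or TATAAA, on either strand (ATTGG is the reverse strand of CCAAT). 
*Col3a1* (chr1:45311288-45311537, plus strand): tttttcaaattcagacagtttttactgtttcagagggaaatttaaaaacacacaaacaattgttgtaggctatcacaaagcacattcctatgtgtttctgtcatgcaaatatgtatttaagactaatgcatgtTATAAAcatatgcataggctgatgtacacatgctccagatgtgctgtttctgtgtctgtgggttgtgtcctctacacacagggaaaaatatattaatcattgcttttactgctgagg
*Col5a1* (chr2:27886175-27886424, plus strand): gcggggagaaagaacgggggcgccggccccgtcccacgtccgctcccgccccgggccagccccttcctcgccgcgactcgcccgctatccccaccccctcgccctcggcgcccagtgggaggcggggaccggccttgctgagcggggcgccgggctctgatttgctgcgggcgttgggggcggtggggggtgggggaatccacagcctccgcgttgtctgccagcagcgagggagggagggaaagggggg
*Col5a3* (chr9:20815068-20815317, minus strand): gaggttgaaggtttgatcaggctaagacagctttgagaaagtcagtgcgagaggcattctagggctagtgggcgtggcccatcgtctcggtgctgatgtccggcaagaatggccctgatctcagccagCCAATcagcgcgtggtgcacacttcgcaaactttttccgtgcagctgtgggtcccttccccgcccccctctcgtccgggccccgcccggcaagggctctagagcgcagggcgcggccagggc
*Col11a1* (chr3:114030290-114030539, plus strand): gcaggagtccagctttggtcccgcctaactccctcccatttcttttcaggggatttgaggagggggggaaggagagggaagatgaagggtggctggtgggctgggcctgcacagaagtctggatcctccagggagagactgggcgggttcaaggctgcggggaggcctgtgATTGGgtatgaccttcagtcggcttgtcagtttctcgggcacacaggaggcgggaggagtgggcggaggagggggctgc
None of these 4 held CACGTG, the E-box bound by MYC with MAX, and neither did the other 4 promoters read, of *Col1a2*, *Col11a2*, *Col24a1* and *Col27a1*; 6.02% of 32851 promoters of the same length did. CCAAT was in 3 of the 8 (*Col1a2*, *Col5a3* and *Col11a1*, starting 109, 122 and 79 bases before the start) and in 33.9% of all promoters. TATAAA was in 2 of the 8 (*Col3a1* and *Col11a2*, 117 and 143 bases before the start) and in 12.4% of all promoters. G and C made up 35.2% of the *Col3a1* sequence and 76.4% of that of *Col5a1*, the lowest and the highest of the 8. A match says only that these letters are in the window.

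Type I made up most of the fibrillar transcripts in every group. Of the summed CPM per kilobase of the 10 genes, *Col1a1* made up 64.0% ± 0.259 in juvenile (SD, n = 4), 60.8% ± 1.14 in adult (n = 4), 62.4% ± 0.490 in *c-Myc* (n = 2) and 59.8% ± 0.723 in *c-Myc* + *R172H* libraries (n = 2). *Col5a1* and *Col5a2* took larger shares: *Col5a1* 0.467% in juvenile, 0.730% in *c-Myc* and 0.937% in *c-Myc* + *R172H*, and *Col5a2* 0.683%, 1.23% and 1.55%. *Col3a1* went the other way, from 0.151% to 0.104% and 0.0625%, and *Col11a1* from 0.610% to 0.450% and 0.307%. In log2 counts per *Col1a1* count, *Col5a2* was 0.88 higher in *c-Myc* than in juvenile libraries and a further 0.40 higher in *c-Myc* + *R172H* libraries, with no overlap at either step. *Col11a1* differed by -0.40 and a further -0.49, also without overlap. Both genes were lower in CPM at each step, so the higher ratio of *Col5a2* marks a smaller fall than that of *Col1a1*. The part of the transgene at the *Col1a1* locus in these ratios was not tested. Comparisons of 2 against 4 or 2 against 2 libraries cannot go below an exact p of 0.0667 or 0.333, so these ratios are given as values.

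Collagen chains need enzymes and chaperones to fold, proteases to trim the propeptides and oxidases to crosslink the fibril. Of 23 genes for hydroxylation, folding and export of procollagen, all tested, 20 fell in *c-Myc* against juvenile libraries and none rose, where 16% of all genes fell. *Colgalt2*, a collagen galactosyltransferase, had a log2 fold change of -6.27 ± 0.65, and *P4ha3* and *P4ha2*, α subunits of prolyl hydroxylase, -3.87 ± 0.69 and -2.37 ± 0.18. In the 2 *c-Myc* libraries *Colgalt2* was at 0.41 and 0.057 CPM and *P4ha3* at 0.32 and 0.28 CPM. A single count is 0.046 and 0.057 CPM there, so the folds of *Colgalt2* and *P4ha3* rest on few counts. *Colgalt2* was at 114 and 69.3 CPM in adult replicates 1 and 4 and at 7.83 CPM in juvenile replicate 4. The part of cartilage RNA in its values was not tested. *Serpinh1*, the collagen chaperone HSP47, had -1.34 ± 0.16. *Plod3* (-0.66 ± 0.11), *Colgalt1* (-0.54 ± 0.12) and *Tmem38b* (-0.07 ± 0.28) did not meet the call. Between *c-Myc* + *R172H* and *c-Myc* libraries none of the 23 was called, with a median of -0.26. Between ages 2 of 23 were called, against 5.12% of all genes: *Fkbp10*, a procollagen chaperone, was 0.48 ± 0.12 higher in juvenile libraries (adjusted p = 0.0271, edgeR) and *Plod3*, a lysyl hydroxylase, was lower there, at -0.61 ± 0.14 (0.0173). *Plod3* was at 204 and 185 CPM in adult replicates 1 and 4 and at 127 and 169 CPM in adult replicates 2 and 3. The part of cartilage RNA in this difference was not tested.

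Of 12 genes for propeptide cleavage and crosslinking, 11 were tested and 10 fell with *c-Myc* (16% of all genes). *Loxl3* and *Lox*, lysyl oxidases, had -2.98 ± 0.21 and -2.83 ± 0.13, and *Adamts2*, an N-propeptidase, -2.56 ± 0.14. *Adamts14*, another N-propeptidase, had -0.28 ± 0.15 and was not called. In *c-Myc* + *R172H* against *c-Myc* libraries 3 were lower again: *Loxl2* at -1.47 ± 0.14, *Lox* at -1.21 ± 0.14 and *Adamts2* at -1.01 ± 0.14 (adjusted p = 0.00131, 0.00187 and 0.00974, edgeR). These 3 of 11 stand against 0.461% of all genes. With age 5 of 11 were called (5.12% of all genes): *Adamts14*, *Bmp1* (the C-propeptidase) and *Pcolce* (its enhancer) were higher in juvenile libraries, by 0.80 ± 0.17, 0.58 ± 0.14 and 0.55 ± 0.15, and *Loxl2* and *Loxl1* lower, at -0.83 ± 0.16 and -0.52 ± 0.14. Of 10 collagen receptors 8 were tested and 4 fell with *c-Myc* (16% of all genes), *Itga11* (-2.46 ± 0.12), *Mrc2* (-1.89 ± 0.12) and *Itga1* (-1.33 ± 0.31) most. None was called with *R172H*, and *Ddr1*, a collagen-binding kinase, was the only 1 of 7 called with age, lower in juvenile than in adult libraries (-0.93 ± 0.20). In adult replicates 1 to 4, *Loxl2* was at 333, 173, 241 and 264 CPM and *Ddr1* at 59.3, 29.1, 45.5 and 52.0 CPM. Both were highest in replicates 1 and 4, where the chondrocyte markers also summed highest. *Loxl1* was highest in adult replicate 2, at 108 CPM. The part of cartilage RNA in these age differences was not tested. Of 7 collagen-degrading enzymes in the counts 6 were tested and 5 fell with *c-Myc* (16% of all genes): *Ctsk* (-3.00 ± 0.16), *Mmp2* (-2.17 ± 0.11) and *Mmp13* (-1.93 ± 0.19) had the largest changes. None was called with age or with *R172H*.

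Other genes were ranked by how closely their centred log2 CPM followed each collagen over the 12 libraries, as the root mean square difference among 13005 genes. *Col1a2* was closest to *Cpz* (0.09), *Serpinf1* (0.11) and *Adamts2* (0.12), and *Col1a1* to *Adamts2* (0.14), *Cpz* (0.15) and *Col13a1* (0.15). Between themselves the type I chains differed by only 0.08. *Col5a1* was closest to *Slit3* (0.11), *Bmp1* (0.12) and *Metrnl* (0.12), and *Col5a2* to *Metrnl* (0.13), *Mrc2* and *Tmem229b* (both 0.16). *Col24a1* had *Scrn1* (0.16), *Zbtb7c* (0.18) and *Mamdc2* (0.20), and *Col5a3* had *Sned1*, *Ccdc8* (both 0.23) and *Pcdhb22* (0.26). *Col11a2* had *Bgn* (0.20), *Srpx* (0.21) and *P4ha2* (0.22), and *Col11a1* had *Peg3* (0.24), *Loxl2* (0.28) and *Loxl3* (0.33). *Col3a1* had the matrix genes *Omd* (0.32), *Mfap2* (0.36) and *Dcn* (0.37). *Col27a1* had *Fbln7* (0.30), *Chadl* (0.33) and *Eps8l2* (0.36), and among the collagens its nearest was *Col11a1*, at 1.09. The ranking describes these 12 libraries.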

How the data were processed

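Bulk RNA-seq of 12 libraries was used. The authors deposited raw counts per gene, made with cutadapt 4.6 for trimming, STAR 2.7.11a for alignment (mm10) and HTSeq 2.0.5 for counting; the strand setting is not given in the sources used here. Groups and replicate numbers come from the titles. Counts of every pair of replicates differed by more than sampling noise (chi-square per degree of freedom 5.75 to 147). Libraries were made from pooled cells, of 2 mice each in the controls; the number of mice was not found for the *c-Myc* groups. The p-values measure the spread between these pools.

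Tests used edgeR 4.0.16 (R 4.3.3) with TMM scaling, filterByExpr and robust quasi-likelihood fits, and p-values were adjusted by Benjamini-Hochberg over every gene tested. A call needs an adjusted p below 0.05 and, for both *c-Myc* groups against juvenile, a log2 change of 1 or more in either direction. Juvenile and adult were fitted alone, *c-Myc* against adult with all 12 libraries, and the remaining comparisons without the adult group. The SE was obtained from the fold change and its F value. Ratios to *Col1a1* took a pseudocount of 0.5 and two-sided exact permutation tests (scipy 1.17.1). The fits were tested on simulated data, with 200 genes given a log2 change of 1 in each. At an adjusted p below 0.05, edgeR called 69% of them for juvenile against adult. It called 62% for *c-Myc* against juvenile and 54% for *c-Myc* against adult. Of 11110 unchanged genes, 8 were called for juvenile against adult. Smaller changes were not simulated, so a gene that was not called may still differ. DESeq2 1.42.0, other scalings, filters and sets of libraries, a replicate block, each library left out and a pseudocount of 5 were tried. Lengths and positions are from GENCODE (GRCm38); length over merged exons was added after seeing the data. Genes named are the 10 collagens, *Myc*, *Sp7* and *Col2a1*, up to 3 called genes in each direction of each pathway list, and the 3 closest by pattern; *Gm26917*, *Serpinh1*, *Ucma*, *Col10a1* and the pathway genes named as not called were chosen after their values were seen. Members and lists were chosen with earlier results of these data known.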

Additional observations from a re-analysis of the deposited data

How the results depend on the processing

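In juvenile against adult libraries, where none of the 10 collagens was called, there were 2 calls with library totals (7.46% of all genes called), 4 with no filter on low counts (5.79%), 3 with DESeq2 (7.05%), 1 with all 12 libraries in the fit (8.41%) and 0 to 1 with a library left out (2.45% to 7.64%). *Col3a1* reversed with library totals (-0.035). In *c-Myc* + *R172H* against *c-Myc* libraries, where 5 were called, there were 3 calls with library totals (0.0953%), 10 with no filter on low counts (1.17%), 9 with DESeq2 (2.78%), 3 with all 12 libraries in the fit (0.169%) and 1 to 7 with a library left out (0.0608% to 0.693%). The cause was not tested. With no filter on low counts, the fits that hold *c-Myc* libraries had infinite prior degrees of freedom. Each gene then took the spread common to genes of its level, not its own spread between replicates. In that setting *Col1a2* had an adjusted p of 4.77e-64 (edgeR) in *c-Myc* + *R172H* against *c-Myc* libraries. Such values can set the low end of the ranges given over all alternatives. When a library is left out of a pair, the lone one is assumed to vary like the other groups. Replicate numbers did not pair the libraries (correlation of same-numbered juvenile and adult libraries -0.05 to 0.04, and 0.14 between the 2 *c-Myc* groups, where 2 pairs cannot settle it). With the replicate block the counts were 1 with age (3.83%) and 9 with *R172H* (2.59%). In *c-Myc* against juvenile and against adult, and *c-Myc* + *R172H* against juvenile, 8 to 10 of 10 were called, all lower, in every alternative run. For ratios in the *c-Myc* groups, the exact permutation test cannot reach 0.05 with 2 libraries, and no other test of them was run.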
